A study of Homo sapiens with 12 samples.

Results

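The genes described here encode the protein subunits of the mitochondrial respiratory chain and ATP synthase, together with a few close relatives, in HCT116, a human colon cancer cell line. They were taken by name from the deposited expression table: symbols of the mitochondrial MT-ND, MT-CO, MT-CYB and MT-ATP genes and of the nuclear NDUF, SDH, UQCR, COX4 to COX8 and ATP5 families, without pseudogene names, at a mean of at least 1 FPKM (reads on a gene scaled by its length and by library size) over all libraries. Of 25733 genes in the table, 12341 reached that mean and 92 of these were members, 13 encoded in the mitochondrial genome and 79 in the nucleus.

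RNA sequencing was done on 12 libraries in 4 groups of 3. The labels give the control cells no treatment. NH4Cl cells were given 10 mM ammonium chloride for 24 h. TGF-β cells received vehicle for 23 h and then transforming growth factor beta for 1 h, and in the NH4Cl + TGF-β group that last step followed 23 h of ammonium chloride. The labels number the libraries of each group 1 to 3 and do not say whether a number stands for a separate culture, so the p-values below measure spread between libraries. Reads assigned to genes, recovered from the deposited FPKM, ranged from 14807630 to 18191998 per library, with a median of 15484798.

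The respiratory chain passes electrons from NADH and succinate through complexes I to IV to oxygen, and complex V uses the resulting proton gradient to make ATP. Its subunits come from both genomes: the mitochondrial genome is transcribed as long polycistronic RNAs inside the organelle, and nuclear subunits are made in the cytosol and imported. Complex II is encoded by nuclear genes alone, and nuclear factors such as NRF1, the GABP subunits and YY1 are known regulators of many nuclear subunit genes.

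The members ran over a wide range of levels. The mitochondrial members had mean levels from 98.2 FPKM for MT-ATP8 to 6284 FPKM for MT-CO2, with a median of 1830. Among nuclear members the mean level ran from 1.78 FPKM for ATP5S to 380.1 FPKM for ATP5F1B, the catalytic beta subunit of ATP synthase, with a median of 31.5. Complex I contributed 7 mitochondrial and 33 nuclear members, complex II 4, complex III 1 and 9, complex IV 3 and 14, and complex V 2 and 19. NDUFA4 and its relative NDUFA4L2 were counted with complex IV. ATP5S, ATP5IF1, COX7A2L and UQCRHL carry family names without being standard subunits.

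Of 117 names that matched the families, 18 were pseudogene names and 7 fell short of 1 FPKM. Just under that limit were NDUFV2 at 0.549, NDUFA13 at 0.611 and the antisense NDUFV2-AS1 at 0.782 FPKM, and just above it ATP5S at 1.78, UQCRHL at 1.89 and NDUFS7 at 2.41 FPKM. NDUFV2 and NDUFA13 encode standard complex I subunits, so their low level in this table may not be their level in the cell. Of the 18 pseudogene names 3 reached 1 FPKM, among them NDUFV2P1 at 5.52 FPKM, above NDUFV2 itself. In the gene annotation, 31 members shared over 10% of their exon bases with another gene, led by ATP5ME at 61.6%, and reads in shared bases or in near-identical copies cannot be placed with certainty.

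The cell type label was checked against markers. All 7 epithelial markers were above 1 FPKM, with KRT18 the most abundant at a mean of 876 FPKM. Of 6 fibroblast markers 2 passed that level (LUM at 7.79 FPKM was the most abundant), of 6 leukocyte markers 1 (LYZ at 1.12 FPKM) and of 4 endothelial markers 1 (VWF at 3.01 FPKM). COL1A2 at 0.00653 FPKM, COL3A1 at 0.00745 FPKM and PECAM1 at 0.0348 FPKM were close to 0, and the leukocyte markers PTPRC and CD68 were not in the table.

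Before any treatment is compared, 4 libraries have to be set apart: those numbered 3, one in each group. The 13 mitochondrial members took 4.28% of reads in control replicate 3, 3.74% in TGF-β replicate 3, 4.20% in NH4Cl replicate 3 and 3.79% in NH4Cl + TGF-β replicate 3. In the 8 libraries numbered 1 or 2 that share ran from 2.18% to 2.85%, lowest in NH4Cl + TGF-β replicate 2. The sets did not overlap in any group. For the 79 nuclear members the order was the other way round: their share of reads was 0.843% ± 0.027 (SD, n = 4) in the libraries numbered 3 and 0.951% ± 0.046 (SD, n = 8) in the others. The 95% Wilson interval of each share, which covers counting error only, reached at most 0.0102 percentage points to either side for the mitochondrial and 0.00503 for the nuclear members.

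**Figure D1:**
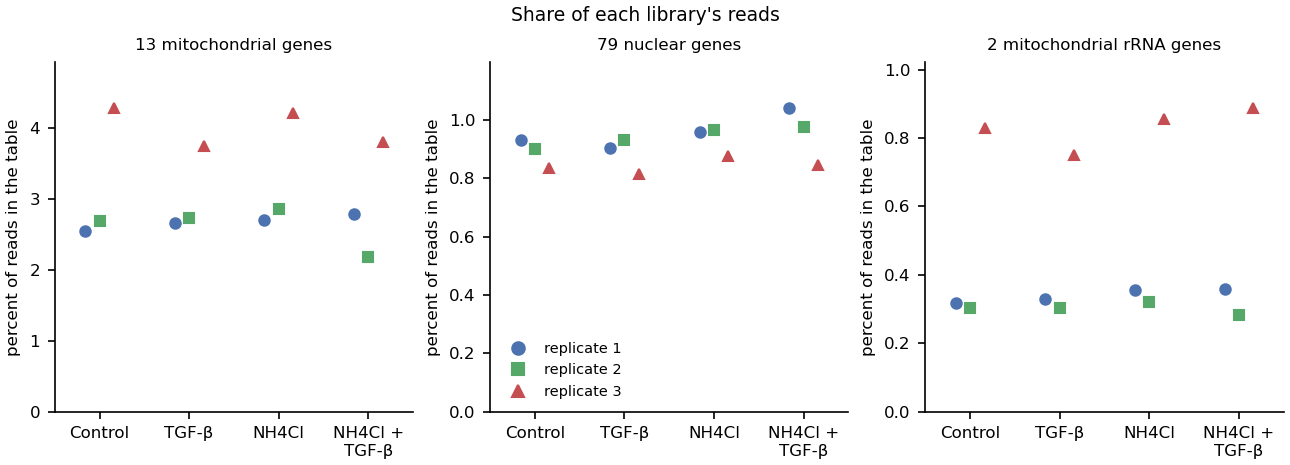
Share of the reads of each library, in percent, taken by the 13 mitochondrial protein genes (left), the 79 nuclear members (middle) and the 2 mitochondrial rRNA genes (right); the horizontal axis gives the 4 groups and each point is a library. The triangles (replicate 3) lie between 3.74% and 4.28% on the left, above all other libraries.

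On the log2 scale, the median mitochondrial member stood 5.46 ± 0.15 (SD, n = 8) above the median nuclear member in replicates 1 and 2 and 6.32 ± 0.05 (SD, n = 4) above it in replicate 3. The difference between these gaps was 0.85, several times the spread among the 8 libraries (SD 0.15). Leaving out any library gave 0.81 to 0.88. A gap between genomes within a library does not depend on how the library was scaled, apart from the added pseudocount.

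Replicate 3 therefore stood apart in a comparison fitted over all genes, with the group held constant. In that fit, made with limma, 54 of 92 members passed an adjusted p of 0.05 (58.7%), next to 58.8% of all genes, so the number of calls is not by itself a result about these genes. By direction, 20 members rose (21.7%) beside 28.9% of all genes, and 34 fell (37.0%) beside 29.9%. All 13 mitochondrial members were among the rises, with a median log2 fold change of 0.72. The 79 nuclear members had a median of -0.10, with 7 rises and 34 falls, against a median of -0.01 over all genes. Replicate 3 lay above both other libraries in all 4 groups for 12 of 13 mitochondrial members and below both for 28 of 79 nuclear members, beside 25.0% and 25.3% of all genes.

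Scaling moved part of this. When each library was scaled to the same FPKM sum, the median of all genes moved to -0.15 in replicate 3, and relative to that shift the mitochondrial median was 0.70 and the nuclear one -0.11, against 0.73 and -0.09 without the scaling. Members called numbered 83 under that scaling (90.2%), beside 67.3% of all genes. Of these 14 were up (15.2%, beside 14.6% of all genes) and 69 down (75.0%, beside 52.7%). The part of the shift of all genes in these falls was not tested. When the FPKM sum was taken without mitochondrial genes 74 were called (80.4%), beside 61.9% of all genes. By direction, 16.3% of members rose, beside 21.3% of all genes, and 64.1% fell, beside 40.5%. The rise of MT-ATP8, whose coding region overlaps that of MT-ATP6, was no longer called under that first scaling (log2 fold change 0.28). It was also lost on leaving out any library other than TGF-β replicate 1, TGF-β replicate 3 or NH4Cl replicate 2, with values from 0.29 to 0.60 over all 12 left-out libraries.

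The mitochondrial genes did not all shift by the same amount. MT-ND4, a proton-pumping subunit of complex I, was at 2814, 2982 and 5782 FPKM in control replicates 1, 2 and 3. It was at 2961, 2970 and 5201 FPKM in the TGF-β libraries, at 3083, 3226 and 5652 FPKM in the NH4Cl libraries and at 3095, 2438 and 5096 FPKM in the NH4Cl + TGF-β libraries. Each replicate 3 value was far above the other libraries, and the groups overlapped widely. Its log2 fold change in replicate 3 was 0.89 (SE 0.06, adjusted p = 1.3e-06). MT-ND6, the only protein gene on the other strand of the mitochondrial genome, rose by 0.87 on the log2 scale (SE 0.05, adjusted p = 3.0e-07).

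Further rises were 0.83 for MT-ND4L, 0.80 for MT-ND1, 0.76 for MT-ND2 and 0.76 for MT-ND5, all membrane subunits of complex I. MT-CO2 and MT-CO1, the copper- and heme-bearing core of complex IV, rose by 0.72 and 0.71. A lower set followed: MT-ATP6 at 0.51, MT-ND3 at 0.45, MT-ATP8 at 0.45, MT-CYB at 0.41 and MT-CO3 at 0.40. Of these, MT-ATP8, MT-ATP6, MT-CO3 and MT-ND3 lie next to each other on the mitochondrial genome, and MT-CYB lies apart from them. No test compared these sets with each other. The 2 mitochondrial rRNA genes also rose, MT-RNR1 by 1.03 (SE 0.09, adjusted p = 9.6e-06) and MT-RNR2 by 1.52 (SE 0.05, adjusted p = 3.1e-08).

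**Figure D2:**
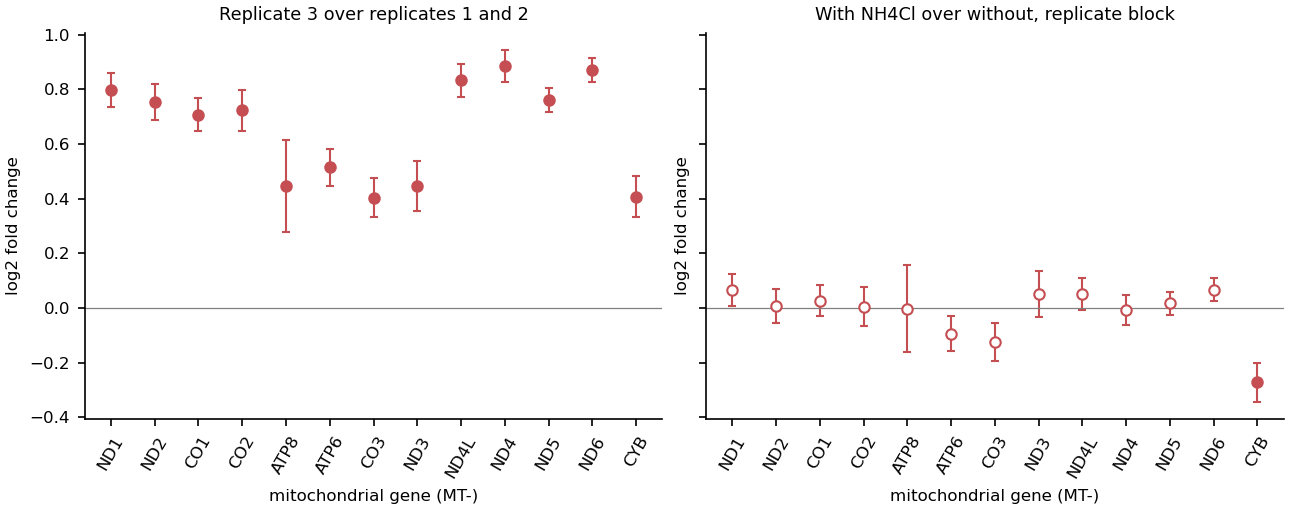
Log2 fold change of the 13 mitochondrial protein genes, in their order along the mitochondrial genome, for replicate 3 over replicates 1 and 2 (left) and with NH4Cl over without, from the fit with the replicate block (right); bars are standard errors and filled points passed an adjusted p of 0.05. MT-ATP8, MT-ATP6, MT-CO3, MT-ND3 and MT-CYB sit lowest on the left, between 0.40 and 0.51, and MT-CYB at -0.27 is the filled point on the right.

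Nuclear copies of mitochondrial genes moved the same way. MTATP6P1 had a mean of 436.5 FPKM in replicate 3 and 326 FPKM in the other libraries, MTND2P28 of 122 and 70.5 FPKM, and MTCO1P12 of 34.5 and 23.8 FPKM. These pseudogenes are near-identical to their mitochondrial originals, so whether their reads came from the nucleus cannot be told apart in these files.

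By complex, the nuclear members in replicate 3 are set beside 28.9% of all genes that rose, 29.9% that fell and the all-gene median of -0.01. The medians of complexes III and IV were near the all-gene median. Complex I had 2 rises and 14 falls among 33 (median -0.10), complex II 3 falls among 4 (median -0.15) and complex III 1 rise and 2 falls among 9 (median -0.02). Complex IV had 3 rises and 4 falls among 14 (median -0.03), and complex V 1 rise and 11 falls among 19 (median -0.14). The deepest fall was that of ATP5MC1, which encodes the c subunit of the ATP synthase rotor: 30.9, 31.6 and 25.1 FPKM in the control libraries and 28.5, 30.1 and 23.5 FPKM in TGF-β libraries. In NH4Cl libraries it was at 32.4, 30.9 and 23.7 FPKM, and after the combination at 33.5, 30.0 and 21.8 FPKM. In each group the library numbered 3 was the lowest, and the groups overlapped. Its log2 fold change was -0.38 (SE 0.04, adjusted p = 3.6e-05). Next came the complex I accessory subunits NDUFC2 at -0.31, NDUFB1 at -0.30 and NDUFB6 at -0.29, and the complex III subunit UQCR10 at -0.26.

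A pair of nuclear genes rose more than any mitochondrial member. NDUFA4L2, a relative of the complex IV subunit NDUFA4 that is known as a hypoxia-induced gene, was at 3.45, 3.03 and 12.8 FPKM in the control libraries and at 3.85, 3.00 and 12.3 FPKM with TGF-β. With NH4Cl it was at 2.82, 3.49 and 7.94 FPKM, and with both at 2.85, 2.63 and 9.76 FPKM. Every replicate 3 value was more than double the other libraries of its group, and the groups overlapped. The log2 fold change of NDUFA4L2 in replicate 3 was 1.48 (SE 0.09, adjusted p = 1.0e-06). COX6B2, the testis-type form of complex IV subunit 6B, rose by 1.38 (SE 0.08, adjusted p = 9.1e-07). Under the scaling to the same FPKM sum these were at 1.34 and 1.23. The other nuclear rises were small, led by COX7A2L at 0.18 and ATP5MC2 at 0.14, and under that scaling none of the other 5 was called as a rise.

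**Figure D3:**
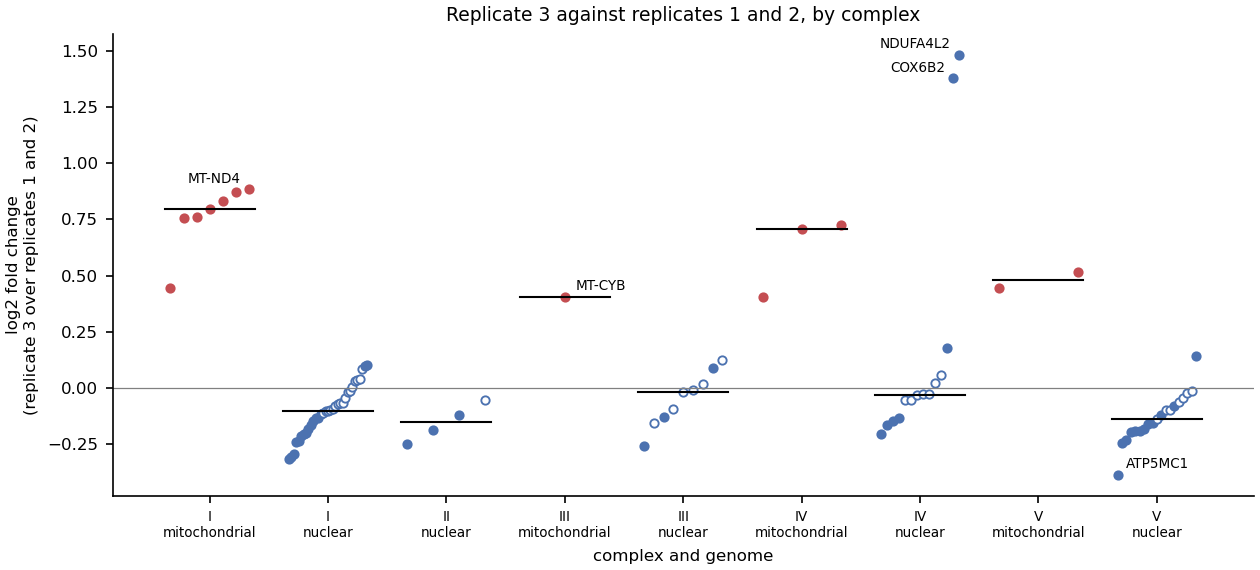
Log2 fold change of each member in replicate 3 over replicates 1 and 2, by complex and genome; red points are mitochondrial and blue points nuclear genes, filled points passed an adjusted p of 0.05, and black lines are medians. Mitochondrial genes lie between 0.40 and 0.89, and most nuclear genes lie below 0, apart from NDUFA4L2 at 1.48 and COX6B2 at 1.38.

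Other values moved with the replicate number. The reads of MALAT1 and NEAT1, RNAs retained in the nucleus, made up 0.0387% ± 0.0017 (SD, n = 4) of reads in replicate 3 and 0.0182% ± 0.0027 (SD, n = 8) elsewhere. NEAT1 rose by 1.20 and MALAT1 by 0.77 on the log2 scale. Of 80 genes for cytosolic ribosomal proteins, 70 rose and 3 fell (median 0.20), and under scaling to the same FPKM sum 17 rose and 12 fell (median 0.03, and 0.18 relative to all genes). The epithelial markers summed to 2905 to 3426 FPKM in replicate 3 and 2281 to 2524 FPKM elsewhere. The keratins KRT8, KRT18 and KRT19 carried most of that difference. CDH1 was also higher, at 18.96 to 23.2 FPKM in replicate 3 and 14.9 to 17.7 FPKM elsewhere, while the levels of EPCAM, VIL1 and CDX2 overlapped. The endothelial ones, mostly VWF, summed to 4.17 to 6.84 and 1.58 to 3.00 FPKM, the fibroblast ones to 9.65 to 11.2 and 8.02 to 10.1 FPKM, and the leukocyte ones to 0.880 to 1.64 and 1.63 to 2.95 FPKM. The part of these values in the shift of the members was not tested. In bulk RNA, fewer cells of a kind and less RNA per cell cannot be told apart.

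Genes that handle mitochondrial RNA and DNA were read from lists, to be set beside 28.9% of all genes that rose in replicate 3, 29.9% that fell and an all-gene median of -0.01. Lists with counts near those shares show no more than genes in general. Of 18 tested genes of mitochondrial RNA processing and decay, 9 fell and none rose in replicate 3 (median -0.12, 1 of the 9 being PNPT1, an RNA-degrading enzyme, at -0.42). Of 14 for mitochondrial DNA maintenance and transcription, 3 rose and 5 fell (median -0.06). TFAM, which packages mitochondrial DNA and starts its transcription, fell by 0.42 on the log2 scale and POLG2, a subunit of the mitochondrial DNA polymerase, rose by 0.41. Assembly factors lay lower as well: 12 of 19 for complex I fell (median -0.16), and 20 of 35 for complexes II to V fell while 2 rose (median -0.14), with COA7 at -0.51. Of 12 mitochondrial chaperones and proteases 2 rose and 5 fell (median -0.06), and of 17 electron carriers and quinone synthesis genes 5 rose and 7 fell (median -0.05). Among 9 tested nuclear regulators of respiratory genes 2 rose, among them NFE2L1 at 0.36, and 4 fell (median -0.02), among them PPARGC1B at -0.36 and PPRC1 at -0.24.

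The first treatment question is what ammonium chloride did, averaged over cells with and without TGF-β, 6 libraries against 6. The median log2 fold change was 0.08 over 79 nuclear members, of which 70 were above 0 (88.6%), beside 49.8% of all genes. Over 13 mitochondrial members it was 0.01, with 8 above 0. The nuclear median was between 0.07 and 0.08 under each scaling, 0.09 in replicates 1 and 2 alone and 0.04 to 0.11 with any library left out, while the mitochondrial one ran from -0.12 to 0.15. Leaving out a library unbalances the numbers, so the replicate 3 shift enters these ranges. Within replicates 1, 2 and 3 the nuclear median was 0.10, 0.07 and 0.06, and the mitochondrial one 0.08, -0.09 and 0.04.

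At an adjusted p of 0.05, limma called 2 members in this comparison (2.17%), both rises, beside 6.14% of all genes, 3.74% called as rises and 2.4% as falls. Because the libraries numbered 3 stood apart in every group, a second fit gave each replicate number its own term, the replicate block. It called 25 members (27.2%), beside 31.0% of all genes. By direction, 24 rose (26.1%) beside 16.1% of all genes, and 1 fell (1.09%) beside 15.0%. The 2 members called without the block were among the 25. Replicates 1 and 2 alone, an alternative chosen after seeing the data, gave 21 members without the block (22.8%, beside 26.6% of all genes) and 16 with it (17.4%, beside 26.0% of all genes). By direction these were 20 rises (21.7%, beside 13.9% of all genes) and 1 fall (1.09%, beside 12.7%) without the block, and 16 rises (beside 13.6%) and no fall (beside 12.4%) with it. With both directions pooled, the share of members called was below that of all genes in these 4 fits. Other fits with the block lay on either side. With the FPKM sum taken without mitochondrial genes it was 32.6%, beside 30.5% of all genes. It was 33.7% (beside 28.7%) without NH4Cl + TGF-β replicate 3 and 18.5% (beside 24.9%) without control replicate 2. By direction, the share of members that rose was above that of all genes in the 3 fits other than the one without the block on all libraries. Their share of falls was below that of all genes in all 4. No test compared the shares of members and of all genes. With the block, 16 of the 25 were called whichever library was left out. The remaining 9 lost the call for 3 to 9 of the 12 left-out libraries: NDUFA10, NDUFS1, NDUFS7, NDUFS8 and NDUFV1 in complex I, COX5A and COX7C in complex IV, and ATP5F1B and ATP5F1D in complex V. Names in these paragraphs beyond the stated rule were chosen after their values were seen. Without the block, the count of 2 became 1 on leaving out control replicate 1, control replicate 2, TGF-β replicate 1, NH4Cl replicate 1 or NH4Cl replicate 2, and 4 without NH4Cl + TGF-β replicate 3. The count of 1 (1.09%) stood beside 2.79% to 3.30% of all genes, 1.73% to 2.04% as rises. The count of 4 (4.35%, all rises) stood beside 4.81%, 2.97% as rises. Of the nuclear members, 22 of 79 were higher with NH4Cl in all 6 same-number pairs of libraries, beside 15.7% of all genes. These pairs join libraries by number alone, and the labels do not say that they were made together.

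**Figure D4:**
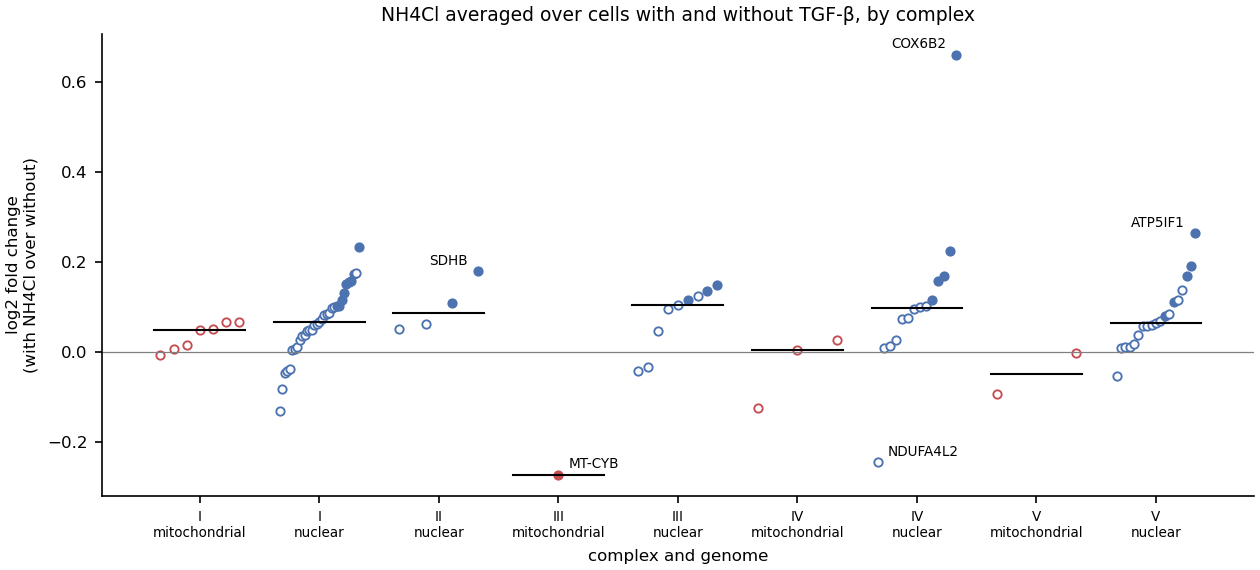
Log2 fold change of each member with NH4Cl over without, averaged over cells with and without TGF-β, by complex and genome; red points are mitochondrial and blue points nuclear genes, filled points passed an adjusted p of 0.05 in the fit with the replicate block, and black lines are medians. Of 79 nuclear genes 70 lie above 0, with COX6B2 highest at 0.66, and MT-CYB at -0.27 is the filled point below 0.

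The counts by complex that follow stand beside 16.1% of all genes that rose in the blocked fit and 15.0% that fell. Among complex I genes, 9 of 33 nuclear members rose in that fit and none fell (median 0.07). NDUFA1, an accessory subunit of the membrane arm with 44.5% of its exon bases shared with another gene, had the largest complex I value, 0.23 (SE 0.05 with the block, adjusted p = 0.0055; without it, adjusted p = 0.053). Without the block, NDUFA1 was called on leaving out TGF-β replicate 2 (0.27) or NH4Cl + TGF-β replicate 3 (0.27). The mitochondrial complex I genes had no calls (median 0.05).

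In complex II, all 4 genes were above 0 (median 0.09). SDHB, the iron-sulfur subunit of succinate dehydrogenase (chr1:17018722-17054170), was at 48.7, 47.4 and 48.3 FPKM in control libraries and at 49.1, 51.6 and 48.0 FPKM with TGF-β. With NH4Cl it was at 53.5, 54.6 and 52.9 FPKM, and with both at 60.3, 57.5 and 54.1 FPKM. All libraries with NH4Cl lay above all without it. The log2 fold change of SDHB was 0.18 (SE 0.04, adjusted p = 0.020; with the block SE 0.03, adjusted p = 0.00096), higher in 6 of 6 pairs. Without the block, that call was lost on leaving out control replicate 1 (0.18), control replicate 2 (0.17), TGF-β replicate 1 (0.18), NH4Cl replicate 1 (0.18) or NH4Cl replicate 2 (0.17), and under scaling to the same FPKM sum (0.18, adjusted p = 0.24). SDHA, the flavoprotein subunit, was at 0.11 (adjusted p = 0.011 with the block, 0.23 without).

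Complex III held members that moved apart. Of its 9 nuclear members 3 rose with the block (median 0.10): UQCRFS1, the Rieske iron-sulfur protein, at 0.15, and the core proteins UQCRC2 at 0.14 and UQCRC1 at 0.12. UQCRFS1 was at 47.7, 45.8 and 44.4 FPKM in control libraries and at 49.5, 47.8 and 42.8 FPKM in TGF-β libraries. In NH4Cl libraries it was at 49.9, 52.4 and 48.2 FPKM, and after the combination at 55.2, 54.8 and 48.8 FPKM. Each NH4Cl library was above its partner of the same number, and the ranges overlapped (adjusted p = 0.0026 with the block, 0.11 without).

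MT-CYB, cytochrome b and the only complex III subunit of the mitochondrial genome (chrM:14747-15887), went the other way. It was at 1217, 1319 and 1754 FPKM in control libraries and at 1227, 1318 and 1494 FPKM with TGF-β. With NH4Cl it was at 1065, 1145 and 1534 FPKM, and with both at 1099, 819 and 1301 FPKM. The libraries with NH4Cl were lower in 6 of 6 pairs, while the ranges overlapped because replicate 3 was high in each group. The log2 fold change of MT-CYB was -0.27 (SE 0.07 with the block, adjusted p = 0.015; without it, adjusted p = 0.30). With the block the value ran from -0.33 to -0.20 over the left-out libraries, each time with an adjusted p from 0.0036 to 0.043. In replicates 1 and 2 alone it was -0.31 (adjusted p = 0.039, and 0.055 with the block). MT-CO3 at -0.12 and MT-ATP6 at -0.09 lay next lowest among mitochondrial genes and did not pass (adjusted p = 0.20 and 0.29 with the block).

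In complex IV, 5 of 14 nuclear members rose with the block (median 0.10). COX6B2 (chr19:55349306-55354814) was at 2.35, 2.23 and 8.51 FPKM in control libraries and at 2.37, 2.62 and 9.63 FPKM with TGF-β. With NH4Cl it was at 5.09, 5.20 and 11.05 FPKM, and with both at 4.55, 4.60 and 13.8 FPKM. Within each number the NH4Cl libraries were higher in all 6 pairs, and across numbers the ranges overlapped because of replicate 3. The log2 fold change of COX6B2 was 0.66 (SE 0.08 with the block, adjusted p = 0.00029; without it, SE 0.41 and adjusted p = 0.40). In replicates 1 and 2 alone it was 0.79 (adjusted p = 6.8e-05). COX6B2 shares 30.9% of its exon bases with another gene. COX7B at 0.22 and COX6B1 at 0.17 were further rises that held with each library left out. NDUFA4L2, at -0.24, had the lowest value among nuclear members and did not pass (adjusted p = 0.059 with the block). The nuclear subunit COX4I1 was at 0.07 with no call.

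In complex V, 5 of 19 nuclear members rose with the block (median 0.07). ATP5IF1, an inhibitor protein that binds ATP synthase and blocks ATP hydrolysis (chr1:28236109-28246906), was at 42.1, 41.5 and 42.1 FPKM in control libraries and at 41.1, 44.4 and 40.2 FPKM with TGF-β. With NH4Cl it was at 49.8, 50.3 and 50.8 FPKM, and with both at 53.5, 50.7 and 48.2 FPKM. All libraries with NH4Cl lay above all without it. The log2 fold change of ATP5IF1 was 0.26 (SE 0.04, adjusted p = 0.0048; with the block SE 0.03, adjusted p = 0.00023), higher in 6 of 6 pairs. The call held with each library left out (0.25 to 0.29) and was lost under scaling to the same FPKM sum (0.27, adjusted p = 0.070). ATP5MG at 0.19 and ATP5MD at 0.17 also rose with the block, and ATP5F1A, the alpha subunit, was at 0.06 with no call.

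**Figure D5:**
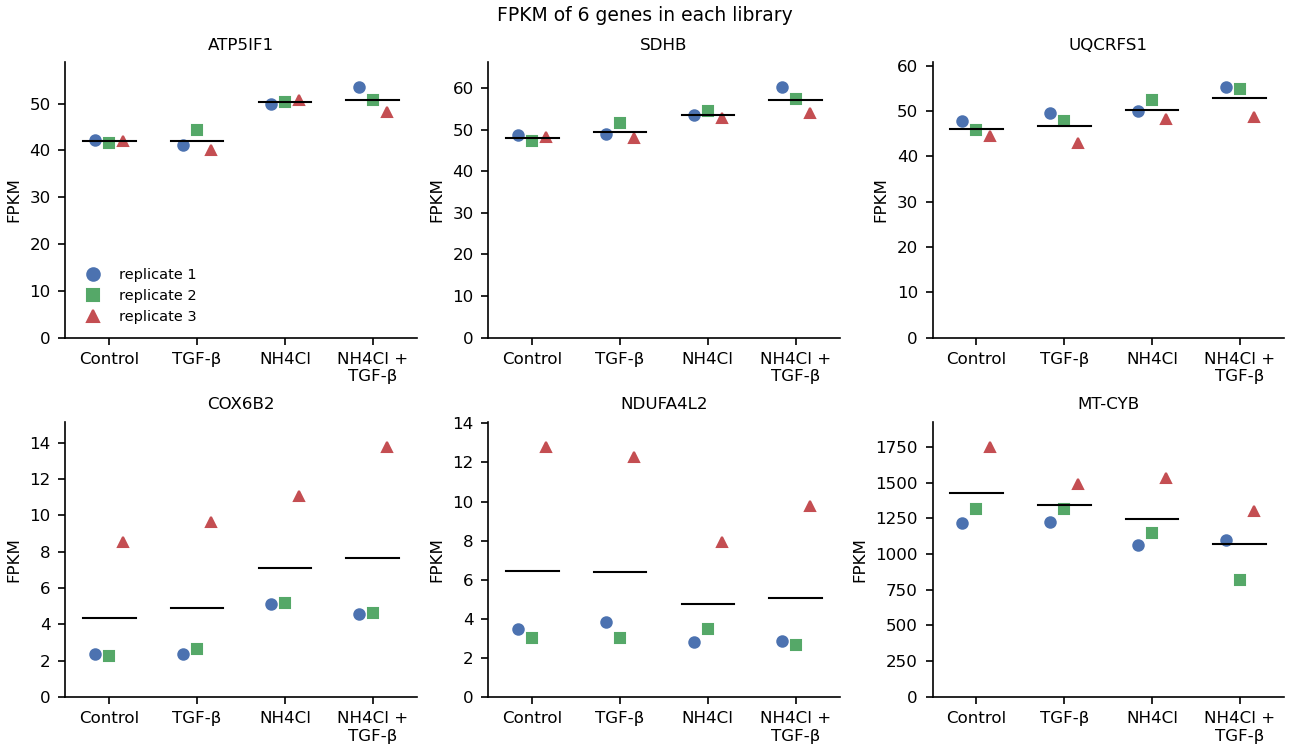
FPKM of ATP5IF1, SDHB, UQCRFS1, COX6B2, NDUFA4L2 and MT-CYB in each library; the horizontal axis gives the 4 groups, points are libraries and black lines are group means. ATP5IF1 and SDHB are higher in all libraries with NH4Cl, and COX6B2, NDUFA4L2 and MT-CYB are highest in replicate 3 of each group.

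Promoters are shown for 4 genes that rose with NH4Cl in the blocked fit whichever library was left out, chosen after their values were seen. RefSeq promoters (build GRCh38.p14, 250 bases before to 50 after the first listed start) were matched to 65 of 79 nuclear members, by symbol or synonym and position. Capitals mark the motifs searched on both strands: GCGCATGCG (NRF1), CCGGAAG (ETS family, which includes GABP), AAGATGGCG (YY1), TCACGTGA (CLEAR element) and ACGTG (hypoxia response element core, which lies within TCACGTGA). SDHB (chr1:17053983-17054282, minus strand) carries the ETS and YY1 letters and UQCRC1 (chr3:48609597-48609896, minus strand) those of YY1. COX6B2 (chr19:55354670-55354969, minus strand), the largest rise, and ATP5IF1 (chr1:28235874-28236173, plus strand) carry none of the 5.
COX6B2: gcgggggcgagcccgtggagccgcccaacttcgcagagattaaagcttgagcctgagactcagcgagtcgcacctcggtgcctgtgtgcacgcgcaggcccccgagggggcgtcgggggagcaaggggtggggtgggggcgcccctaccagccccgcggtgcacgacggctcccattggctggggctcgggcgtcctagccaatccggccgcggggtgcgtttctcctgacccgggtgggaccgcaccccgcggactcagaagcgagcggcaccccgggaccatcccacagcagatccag
ATP5IF1: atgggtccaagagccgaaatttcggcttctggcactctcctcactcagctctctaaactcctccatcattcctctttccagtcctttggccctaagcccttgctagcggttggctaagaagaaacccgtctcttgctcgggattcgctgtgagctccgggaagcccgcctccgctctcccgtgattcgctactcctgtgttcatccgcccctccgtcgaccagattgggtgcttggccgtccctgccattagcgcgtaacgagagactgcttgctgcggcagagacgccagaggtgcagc
SDHB: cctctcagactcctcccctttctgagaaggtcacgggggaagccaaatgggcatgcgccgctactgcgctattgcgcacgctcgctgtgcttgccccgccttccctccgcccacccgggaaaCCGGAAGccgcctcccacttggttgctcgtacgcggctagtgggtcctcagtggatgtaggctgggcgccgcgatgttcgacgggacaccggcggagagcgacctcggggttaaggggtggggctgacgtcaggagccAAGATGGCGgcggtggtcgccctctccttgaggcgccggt
UQCRC1: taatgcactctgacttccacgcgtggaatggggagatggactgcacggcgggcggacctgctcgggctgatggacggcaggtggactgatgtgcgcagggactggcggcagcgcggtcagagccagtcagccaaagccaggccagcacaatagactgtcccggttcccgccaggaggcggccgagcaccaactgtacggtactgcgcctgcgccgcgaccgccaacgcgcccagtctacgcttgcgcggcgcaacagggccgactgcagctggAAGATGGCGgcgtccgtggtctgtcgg

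The NRF1 letters were in 10 of 65 member promoters (15.4%) and in 2.10% of 27305 promoters of all genes. For the ETS letters the shares were 29.2% and 10.7%, for YY1 10.8% and 1.85%, for the CLEAR element 1.54% and 1.04%, and for the hypoxia core 24.6% and 21.6%. Among 20 matched members that rose with NH4Cl in the blocked fit, 1 held the NRF1 letters, 6 the ETS letters, 3 the YY1 letters, none the CLEAR element and 6 the hypoxia core. A match is a run of letters and not a measured binding site.

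NH4Cl alone against control, 3 libraries each, is the comparison behind part of that average and shares its control libraries with the comparisons that follow. Without the block limma called none of the 92 members (0.381% of all genes), and 6 had an unadjusted p under 0.05. With the block 6 were called, all rises (6.52%), beside 13.6% of all genes, 7.42% as rises and 6.14% as falls. Among them were COX6B2 at 0.71, NDUFA1 at 0.30, ATP5IF1 at 0.26 and SDHB at 0.16. COX6B2 and ATP5IF1 were called whichever of the 6 libraries was left out, NDUFA1 in 2 of these 6 fits and SDHB in 1. The count was 2 (2.17%) without control replicate 1, control replicate 2 or NH4Cl replicate 3, beside 6.29%, 6.05% and 11.3% of all genes. It was 3 (3.26%) without NH4Cl replicate 2, beside 5.71%. Replicates 1 and 2 alone gave 3 members (3.26%, beside 10.5% of all genes), and 2 with the block (2.17%, beside 9.29%). All of these were rises, beside 5.53% of all genes that rose without the block and 5.10% with it. The nuclear median was 0.06 (0.04 to 0.08 over left-out libraries) and the mitochondrial one 0.08. The latter ran from -0.16 without NH4Cl replicate 3 to 0.36 without control replicate 3. Leaving out a library numbered 3 unbalances the numbers, so the replicate 3 shift enters those values. Within replicates 1, 2 and 3 the mitochondrial median was 0.13, 0.12 and 0.002, and the nuclear one -0.001, 0.10 and 0.06.

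TGF-β for 1 h called no member. Without the block limma called 0.0% of all genes and none of the 92 members, and no member had an unadjusted p under 0.05. With the block 0.0081% of all genes and again no member were called, with 1 member at an unadjusted p under 0.05, NDUFC2 at -0.14. Values ran from -0.20 for ATP5ME to 0.11 for COX6B2, with a nuclear median of -0.01 and a mitochondrial median of -0.03. The mitochondrial median ran from -0.21 without TGF-β replicate 3 to 0.25 without control replicate 3. The nuclear one ran from -0.04 without TGF-β replicate 2 to 0.02 without TGF-β replicate 3. Leaving out a library unbalances the numbers, so the replicate 3 shift enters these ranges. Within replicates 1, 2 and 3 the mitochondrial median was 0.07, 0.01 and -0.20. The nuclear one was -0.04, 0.06 and -0.06, so neither kept its sign over the numbers.

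NH4Cl followed by TGF-β, against control, gave the most calls of the 3 group comparisons. Without the block limma called none of the 92 members (0.948% of all genes), and 13 had an unadjusted p under 0.05. With the block 13 were called (14.1%) beside 18.4% of all genes, 12 as rises (10.7% of all genes) and 1 as a fall (7.77%). The largest rises were COX6B2 at 0.72, ATP5IF1 at 0.27 and NDUFA1 at 0.25, followed by SDHB at 0.25. The NDUFA1 call was lost without control replicate 1 (0.22), control replicate 2 (0.23) or NH4Cl + TGF-β replicate 1 (0.15). The fall was MT-CYB at -0.42 (SE 0.10, adjusted p = 0.017). The MT-CYB call was lost without control replicate 2 (-0.39) or control replicate 3 (-0.39). Over the 6 left-out libraries the value of MT-CYB ran from -0.54 to -0.28. Other rises included UQCRFS1 at 0.20 and UQCRC1 at 0.17. Of the 13, 6 were called whichever library was left out. The count was 8 without control replicate 1, 6 without control replicate 2 and 8 without control replicate 3. These were 8.70%, 6.52% and 8.70% of members, beside 10.6%, 9.47% and 11.9% of all genes. Rises alone were 7.61%, 6.52% and 8.70%, beside 6.70%, 5.68% and 7.03%. Replicates 1 and 2 alone gave 10, all rises, with or without the block (10.9%, beside 13.2% of all genes without it and 13.01% with it). By direction, 7.61% of all genes rose and 5.60% fell without the block, and 7.62% rose and 5.39% fell with it. The nuclear median was 0.09, running from 0.02 without NH4Cl + TGF-β replicate 1 to 0.16 without NH4Cl + TGF-β replicate 3. The mitochondrial median was -0.08, running from -0.35 without NH4Cl + TGF-β replicate 3 to 0.20 without control replicate 3. These fits too leave the numbers unbalanced. Within replicates 1, 2 and 3 the mitochondrial median was 0.15, -0.25 and -0.18, and the nuclear one 0.14, 0.10 and 0.01.

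Whether TGF-β altered the response to NH4Cl was tested by the interaction term. With limma 0.0% of all genes and no member passed with or without the block, and 0 members without and 3 with it had an unadjusted p under 0.05. All 13 mitochondrial members had a negative interaction value (median -0.15), and nuclear members had a median of 0.04. The mitochondrial median was -0.45 within replicate 2, -0.04 within replicate 1 and 0.03 within replicate 3, and NH4Cl + TGF-β replicate 2 was the library with the lowest mitochondrial share of reads. Leaving out single libraries, which unbalances the numbers, took the mitochondrial median from -0.40 without control replicate 3 to 0.07 without NH4Cl replicate 3. The nuclear median was 0.19, -0.06 and -0.02 within replicates 1, 2 and 3. It ran from -0.01 without NH4Cl + TGF-β replicate 1 to 0.09 without NH4Cl + TGF-β replicate 3. Neither median kept its sign over the numbers.

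The median mitochondrial member stood above the median nuclear one by 5.74 ± 0.52 (SD, n = 3) in control, 5.84 ± 0.42 in the TGF-β group, 5.82 ± 0.47 in the NH4Cl group and 5.59 ± 0.58 after the combination, on the log2 scale. Much of that spread was the replicate 3 shift, which every group shared. Within replicates 1, 2 and 3 the gap differed from control by 0.13, 0.08 and 0.04 in the NH4Cl group, and with means over members in place of medians by 0.06, 0.01 and -0.08. After the combination it differed by -0.05, -0.34 and -0.09, and with means by -0.03, -0.36 and -0.21, lower in 3 of 3 either way. In the TGF-β group it differed by 0.26, 0.04 and -0.01, and with means by 0.18, -0.04 and -0.17. The differences of the group means, 0.08, -0.16 and 0.09, changed sign when single libraries were left out, which also leaves the numbers unbalanced between groups. No test was made of these gaps.

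Partner genes were read from the same lists for NH4Cl averaged over cells with and without TGF-β. Without the block, limma called 1 of 19 complex I assembly factors, 2 of 35 of the other complexes, 2 of 17 electron carriers and quinone synthesis genes and 1 of 12 chaperones and proteases, beside 6.14% of all genes. It called none of 14 genes of mitochondrial DNA maintenance and transcription, 18 of mitochondrial RNA processing and decay and 9 regulators, with 4, 2 and 3 at an unadjusted p under 0.05. The calls are of single genes and say nothing about a list. They were TRAP1, a mitochondrial HSP90 chaperone, at 0.19 (adjusted p = 0.0095), TMEM126B, a complex I assembly factor, at 0.28 (adjusted p = 0.015) and COX18, an insertase for complex IV, at 0.22 (adjusted p = 0.035). COA5 at 0.17 (adjusted p = 0.044) and COQ4 at -0.20 (adjusted p = 0.043), needed for coenzyme Q synthesis, were called too, as was ETFA, an electron carrier, at 0.13 (adjusted p = 0.032). The list counts with the block stand beside 16.1% of all genes that rose and 15.0% that fell. Of 19 complex I assembly factors 6 rose and 4 fell (median 0.08), ACAD9 at -0.38 being lower in all 6 pairs. Of 35 assembly factors of the other complexes 8 rose and 2 fell (median 0.06), with SDHAF4 at 0.34.

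Of 17 electron carriers and quinone synthesis genes, 3 rose and 3 fell with the block (median 0.04). CYCS, cytochrome c, was at 0.22 (adjusted p = 0.00059 with the block, 0.11 without) and PDSS1, which makes the tail of coenzyme Q, at -0.24 (adjusted p = 0.0078 with the block, 0.49 without). For mitochondrial DNA maintenance and transcription 3 of 14 rose and 2 fell (median 0.00): TFB1M at 0.27, POLG and POLG2 at 0.19 each as rises, and TFB2M at -0.21 as a fall. For mitochondrial RNA processing and decay 2 of 18 rose (median 0.01), FASTKD1 at 0.21 and TBRG4 at 0.11. Among chaperones and proteases 2 of 12 rose (median 0.05), TRAP1 and CLPX. Of the 9 regulators, ESRRA rose at 0.17, and CREB1 at -0.16, GABPB1 at -0.15 and NRF1 at -0.14 fell (median -0.03). Ribosomal protein genes had 2 rises and 9 falls of 80 (median -0.02), NEAT1 rose at 0.24, and neither mitochondrial rRNA gene was called. Markers of several cell types moved with NH4Cl too. Over the same-number pairs of libraries, KRT19 and CDH1 were lower with NH4Cl in all 6. EPCAM, the fibroblast markers LUM and PDGFRB and the endothelial marker VWF were higher in all 6. The other epithelial markers, KRT8, KRT18, VIL1 and CDX2, did not move one way over the pairs. Nor did the other fibroblast markers, COL1A1, COL1A2, COL3A1 and DCN. The other endothelial markers did not follow VWF throughout: KDR was lower in 5 pairs and at 0 FPKM in both libraries of the other, and the levels of CDH5 overlapped. PECAM1 was higher with NH4Cl except in replicate 3 without TGF-β, at 0.0522 FPKM in control and 0.0446 FPKM with NH4Cl. The leukocyte marker LYZ was at 0.88 to 1.37 FPKM with NH4Cl and 1.39 to 1.92 FPKM without in replicates 1 and 2, and its levels overlapped in replicate 3. The part of these markers in the changes of the members was not tested.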

How the data were processed

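The authors deposited FPKM values by gene identifier and symbol, without counts, gene lengths or coordinates. The labels name Trimmomatic 0.36, STAR 2.5.2b, GRCh38, featureCounts of Subread 1.5.2, DESeq2 and the RNeasy Plus Mini kit, while the methods of the paper name HTSeq2 with DESeq2 and PureLink, and the values do not settle which was used. Gene lengths (combined exons), coordinates (GRCh38) and exon overlaps were taken from GENCODE release 29. FPKM times that length, divided by the smallest step of each library, gave whole reads for 100.0% of values (tolerance 0.05), from which the depths come.

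Values were taken as log2(FPKM + 1), and genes with a mean of at least 1 FPKM were tested with limma 3.58.1 in R 4.3.3, two-sided, with an intensity trend and Benjamini-Hochberg adjustment over all genes tested. Tables and plots were made with Python 3.11.15, numpy 2.4.6, pandas 2.3.3 and matplotlib 3.10.9. MT-ATP6 and MT-ATP8 were kept although their names end like those of pseudogenes.

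After group means were removed, the 18 pairs of libraries with one number correlated at 0.349 to 0.774. The pairs numbered 3 correlated at 0.702 to 0.774. Neither labels nor paper say what a number stands for, so the pairing rests on the numbers themselves. A replicate 3 shift shared by the groups leaves an opposite remainder in replicates 1 and 2 once group means are removed. The correlations of pairs numbered 1 or 2 therefore cannot show that these numbers are sets, and pairs across numbers were not computed. Alternatives were other pseudocounts, filters and scalings, no trend, the replicate block and each library left out; replicates 1 and 2 alone were added after seeing the data.

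Members and lists were chosen with earlier results of these data known. Names were drawn, not all of them printed, from mitochondrial genes, core subunits, the highest and lowest member of each complex, neighbours of the 1 FPKM limit, members called without the block (the 5 largest rises and 5 largest falls where more than 10 were), the 3 largest rises and falls with it, and the 3 largest changes of each list. The lists held assembly factors, electron carriers and quinone synthesis genes, mitochondrial DNA and RNA factors, chaperones and proteases, regulators, mitochondrial rRNAs, nuclear-retained long noncoding RNAs and cytosolic ribosomal proteins.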

Additional observations from a re-analysis of the deposited data

How the results depend on the processing

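The replicate block raised the members called from 0 to 6 for NH4Cl, from 0 to 13 for NH4Cl plus TGF-β and from 2 to 25 for the NH4Cl average, and changed no other count. The share of all genes called rose too, from 0.381% to 13.6%, from 0.948% to 18.4% and from 6.14% to 31.0%. Replicates 1 and 2 alone, chosen after seeing the data, gave 3, 10 and 21, beside 10.5%, 13.2% and 26.6% of all genes. With the block they gave 2 for NH4Cl and 16 for the average, beside 9.29% and 26.0%. A mean of at least 5 FPKM gave 1 for NH4Cl plus TGF-β (1.16% of the members then tested, beside 1.29% of all genes). It gave 4 for the average (4.65%, beside 6.87%). All of these were rises, beside 0.989% and 4.26% of all genes that rose. Scaling to the same FPKM sum gave 0 for the average and 83 for replicate 3, and a sum without mitochondrial genes, with the block, gave 11 for NH4Cl. The cause of these changes was not tested.

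With each library left out, members called without the block stayed at 0 for NH4Cl, TGF-β, NH4Cl plus TGF-β and the interaction, and ranged from 1 to 4 for the average and from 42 to 56 for replicate 3. For the average that was 1.09% to 4.35%, beside 2.79% to 7.31% of all genes. For replicate 3 it was 45.7% to 60.9%, beside 52.3% to 57.4%. With the block they ranged from 2 to 5, 0 to 0, 6 to 15, 17 to 31 and 0 to 0 for NH4Cl, TGF-β, NH4Cl plus TGF-β, the average and the interaction. Shares of members were 2.17% to 5.43% for NH4Cl, beside 5.71% to 11.3% of all genes. They were 6.52% to 16.3% for NH4Cl plus TGF-β (beside 9.47% to 13.9%) and 18.5% to 33.7% for the average (beside 24.7% to 28.8%). The gap between the genomes ranged from 0.81 to 0.88 for replicate 3, from -0.19 to 0.38 for NH4Cl, from -0.15 to 0.39 for TGF-β and from -0.49 to 0.14 for both. For the treatments, leaving out a library unbalances the numbers, so the replicate 3 shift enters these ranges. Of 342 calls of named members with a library left out, 326 stayed on their side of the threshold, and 29 of 32 did so under scaling to the same FPKM sum. No value reversed a called direction. Where a group is left with 2 libraries, limma pools the spread over groups. Genes near 1 FPKM and those sharing exon bases are limited by depth and by read placement.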
